A study of Mus musculus with 4 samples.

Results

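Described here are 35 genes that make, modify, carry or regulate cholesterol and fatty acids, measured nucleus by nucleus in the deep cerebellar nuclei of mice, through which the cerebellum sends its output. They are those of 37 listed genes that had a count in each of the 4 libraries, out of 15632 genes in the deposited tables, of which 11446 had a count in each library. Of the other 2 listed genes, Hsd17b7 was listed at 0 in 1 library and Fdps is not analysed here. By role, 5 members belong to the mevalonate steps, 8 to the squalene and sterol steps, 4 are regulators, 3 start fatty acid synthesis, 12 desaturate, elongate, hydroxylate or activate fatty acids, and 3 export or oxidise cholesterol.

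Libraries came from C57BL/6J mice of a pair of Cre lines. The Ucn3-Cre line carries Tg[Ucn3-cre]KF31Gsat/Mmucd, a Cre transgene under control of the urocortin 3 gene. Its replicate 1 was a female aged 3 months with nuclei taken from an iodixanol gradient, and its replicate 2 was a male aged 3 months with nuclei taken through a sucrose cushion. The vGluT2-Cre line carries Tg(Slc17a6-icre)1Oki, an improved Cre under control of the gene of the vesicular glutamate transporter 2. Its replicate 1 was a male aged 2 months and its replicate 2 a female aged 2.5 months, both with a sucrose cushion. Each line was crossed with the strain Ai32, in which CAG-COP4*H134R/EYFP, a channelrhodopsin with a fluorescent tag, sits at the ROSA26 locus and is made once Cre has acted, so every library carries a Cre transgene and the reporter allele and none is a Cre-free control. No sorting of nuclei is recorded. The labels do not say how many animals a library holds, so p-values measure only the spread between libraries, which may be technical. Each line had 1 female and 1 male library, so sex is crossed with line. Age differed between the lines, and the iodixanol gradient was used for 1 library, a Ucn3-Cre female. Line and age therefore cannot be told apart across 4 libraries, and neither line nor sex is free of extraction and age.

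The deposited tables hold 4291 to 6587 nuclei and 9096357 to 19125488 counts per library, and 41 cell barcodes were shared between pairs of libraries. Ucn3-Cre replicate 1 stood apart, with a median of 1730 counts per nucleus and 0.163% mitochondrial counts, against 1999 to 3206 counts and 0.254% to 0.303% in the other libraries. After removal of likely doublets, 20547 nuclei were clustered without the members or the other lipid genes described here, and classes were named from marker genes. They are therefore rebuilt classes, for example oligodendrocyte-like nuclei, written below without the suffix. Oligodendrocytes made up 53.6% to 55.6% of the nuclei of a library, and the classes held 5023 astrocytes, 692 oligodendrocyte precursors, 763 microglia, 546 glutamatergic neurons, 1095 inhibitory neurons of nuclear or Golgi type and 244 molecular layer interneurons. The 3 neuron classes were also summed together as neurons. For oligodendrocytes, astrocytes and precursors, a defining marker went with the name. Mog averaged 1645 ± 130.0 CPM in oligodendrocytes, Aqp4 1195 ± 218 in astrocytes and Pdgfra 1759 ± 96.3 in precursors. The inhibitory class was less clearly marked. Its own marker list summed to a mean of 1096 CPM there, against 964 CPM in molecular layer interneurons. The molecular layer list summed to 2480 CPM in the inhibitory class and 5590 CPM in its own class. With finer clusters, a cluster of 436 nuclei nearest the inhibitory list took no name. Levels are given as CPM, the counts of a gene summed over a class in a library and scaled to a common total, so levels compare classes and libraries for 1 gene, not 1 gene with another. In the sums over all nuclei, fewer nuclei of a class and less RNA per nucleus cannot be told apart.

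As background, cholesterol is built from acetyl-CoA through mevalonate, squalene and lanosterol, and the brain makes its own because lipoproteins of the blood do not cross the blood-brain barrier. Oligodendrocytes need large amounts of cholesterol, galactolipids and long fatty acids for myelin, while astrocytes secrete cholesterol on particles of apolipoprotein E. The transcription factors SREBP-1 and SREBP-2, held in the endoplasmic reticulum by SCAP and INSIG proteins when sterols are plentiful, drive the genes of fatty acid and sterol synthesis, and they act together with the factor NF-Y, which binds CCAAT boxes.

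The proximal promoters of 4 sterol genes whose levels are followed below show what these sites look like. The 200 bases before the RefSeq start of each gene on GRCm38.p6 are given 5′ to 3′ on the strand of the gene. In the annotation used below for gene spans, the Msmo1 window lies inside the gene. There, the Idi1 window reaches past the start of the gene, at chr13:8885501. Capitals mark CCAAT or its complement ATTGG, and CACNCCAC, a core of the sterol regulatory element, on either strand. The windows are chr13:119690151-119690350 (plus strand, Hmgcs1), chr13:8885406-8885605 (plus strand, Idi1), chr8:122443423-122443622 (minus strand, Mvd) and chr8:64733579-64733778 (minus strand, Msmo1).
Hmgcs1: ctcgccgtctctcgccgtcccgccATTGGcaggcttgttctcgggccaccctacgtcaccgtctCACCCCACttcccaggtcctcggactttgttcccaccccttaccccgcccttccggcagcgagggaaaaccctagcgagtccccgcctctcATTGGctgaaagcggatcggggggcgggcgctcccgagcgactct
Idi1: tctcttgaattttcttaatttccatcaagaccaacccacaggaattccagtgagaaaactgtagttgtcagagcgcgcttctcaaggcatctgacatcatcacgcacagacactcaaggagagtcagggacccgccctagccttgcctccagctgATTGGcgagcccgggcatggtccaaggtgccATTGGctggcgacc
Mvd: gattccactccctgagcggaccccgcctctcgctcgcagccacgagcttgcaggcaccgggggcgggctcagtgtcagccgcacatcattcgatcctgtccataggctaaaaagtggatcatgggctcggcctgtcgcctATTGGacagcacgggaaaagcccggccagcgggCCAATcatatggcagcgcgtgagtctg
Msmo1: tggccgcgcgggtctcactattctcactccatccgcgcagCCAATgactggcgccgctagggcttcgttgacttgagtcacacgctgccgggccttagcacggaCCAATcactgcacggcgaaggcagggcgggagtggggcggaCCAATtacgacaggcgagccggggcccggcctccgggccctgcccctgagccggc
In these windows Hmgcs1 held 1 CACNCCAC and 2 CCAAT boxes, Idi1 and Mvd held 2 CCAAT boxes each, and Msmo1 held 3. In the 250 bases before the start, a CCAAT box on either strand was present in 11 of the 11 mevalonate and sterol members with a promoter in the RefSeq table, in 9 of the 18 other members with one, and in 37.5% of 27025 genes. CACNCCAC was present in Hmgcs1, Insig1 and Elovl7, 3 of the 29 members with a promoter, and in 6.05% of genes. A match describes these letters and shows no binding.

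Comparing oligodendrocytes with their precursors asks how the lipid genes differ between myelin-forming cells and the cells they arise from. Of 33 members tested, 18 were higher in oligodendrocytes and 4 were lower (edgeR's quasi-likelihood test, adjusted p under 0.05 by the Benjamini-Hochberg method over every gene tested). Over all 10935 genes tested, 23.7% were higher and 26.4% were lower. The median log2 fold change was 0.56 over the members and 0.01 over all genes. Against astrocytes, 20 of 35 members were higher in oligodendrocytes and 11 were lower, where 33.8% and 34.7% of 11914 genes were. The share of members called in either direction against astrocytes, 31 of 35, stands beside 68.5% of all genes. Without the library as a block in the fit, 8 of the calls against astrocytes were lost, those of Hmgcs1, Pmvk, Mvd, Sqle, Cyp51, Insig1, Scd1 and Fasn, and 3 of those against precursors, Nsdhl, Insig1 and Apoe. DESeq2 did not call Fasn, Pmvk and Scd1 against astrocytes or Nsdhl against precursors.

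Astrocytes set against neurons, and microglia set against astrocytes, place the same genes among the other classes. In astrocytes 25 of 34 members were higher than in neurons and 4 were lower, beside 34.4% and 36.2% of 12170 genes. In microglia 2 of 34 members were higher than in astrocytes and 27 were lower, beside 26.5% and 33.9% of 10774 genes, and the median was -1.89 over the members and -0.07 over all genes. Insig1 and Sqle lost their calls between astrocytes and neurons with finer clusters, and Insig1, Sqle, Mvk and Fa2h did without the library as a block. Across 7 classes, 18 members had their highest mean level in oligodendrocytes, 12 in astrocytes, 3 in inhibitory neurons and 2 in precursors. Of the members, 19 had their lowest mean level in microglia and 8 in glutamatergic neurons. The same was not counted over all genes, so whether members differ from other genes in this cannot be read from these counts. Each class was built from the same counts, so the p-values between classes are too small, although the members took no part in the clustering. Those of microglia over astrocytes are also not on the scale of the others. For the marker Slc1a2 edgeR gave adjusted p = 1.89e-123 there at a log2 fold change of -5.99, and up to 4.38e-21 with a library left out. Oligodendrocytes over astrocytes gave 9.63e-13 at -5.93. The p-values are therefore not compared between comparisons. The scaling used by the test placed the median gene 0.35 log2 units away from the plain CPM ratio between microglia and astrocytes, the plain ratio being higher, and the shift was between -0.11 and -0.03 in the other 5 class comparisons.

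**Figure D1:**
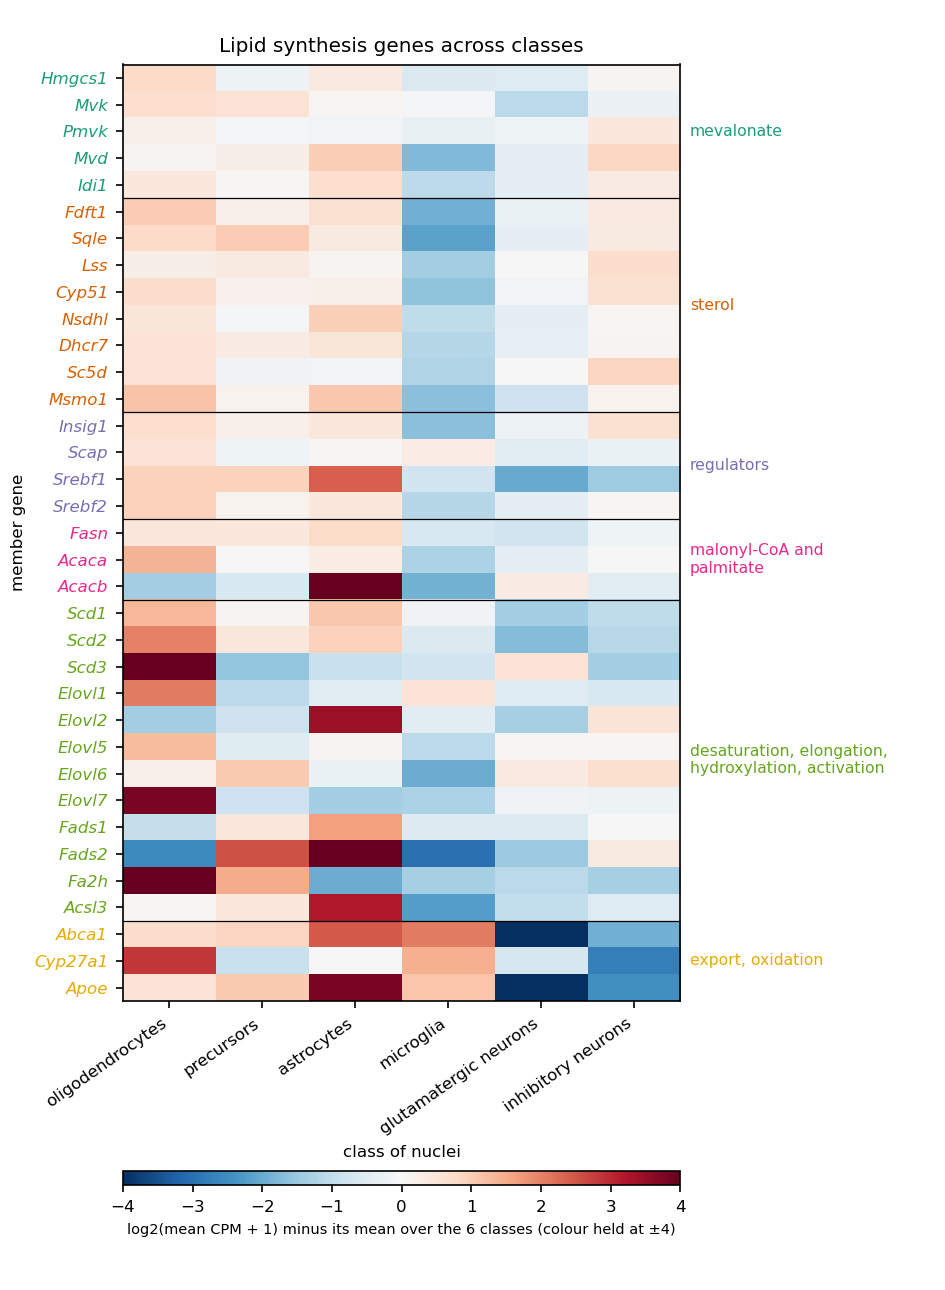
Level of the 35 members, grouped by role, in 6 classes of nuclei, drawn as log2(mean CPM + 1) over 4 libraries minus the mean of that gene over the 6 classes; colours are held at 4 units either side. The microglia column is the lowest for 19 of the 35 members when molecular layer interneurons are counted too, and oligodendrocytes and astrocytes hold the highest mean level of 30. The same was not counted over all genes.

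Markers of other classes were also counted in each class. The 10 oligodendrocyte markers had a median level in astrocytes of 4.38% of their level in oligodendrocytes, in precursors 4.64%, in microglia 6.36% and in neurons 1.97%. The 9 astrocyte markers had a median level in oligodendrocytes of 2.26% of their level in astrocytes, in microglia 3.22% and in neurons 1.00%. None of the markers on either list was at 0 in these classes. Single markers ranged widely around these medians. Oligodendrocyte markers stood at 0.575% to 26.2% in astrocytes, and astrocyte markers at 0.539% to 37.4% in oligodendrocytes. Member levels at or under the medians are called background below, and whether they are stray RNA or low expression was not tested. Among others, this covers Elovl7 and Scd3 in precursors, at 3.79% and 1.14% of their oligodendrocyte level, and Scd3 in astrocytes, at 2.41%. It also covers Elovl2 in oligodendrocytes, at 1.91% of its astrocyte level, and Acsl3 and Acacb in microglia, at 2.24% and 0.584%.

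Mevalonate genes were highest in oligodendrocytes or astrocytes for 4 of 5 members, and Pmvk was highest in inhibitory neurons. Against precursors 1 of 5 was higher in oligodendrocytes (23.7% of all genes), and against astrocytes 3 were higher and 1 lower (33.8% and 34.7%). Astrocytes exceeded neurons for 4 (34.4%), and microglia were below astrocytes for 3 (33.9%). Hmgcs1, which makes HMG-CoA, was counted at 77.6, 122, 162 and 97.0 CPM in oligodendrocytes of Ucn3-Cre replicates 1 and 2 and vGluT2-Cre replicates 1 and 2, the order in which 4 values are always given here. Precursors had 32.3, 71.9, 63.6 and 66.1, astrocytes 52.7, 106, 119 and 79.9, neurons 52.8, 65.0, 65.0 and 55.0 and microglia 44.0, 56.0, 31.3 and 49.6 CPM. The oligodendrocyte and precursor values did not overlap, and Ucn3-Cre replicate 1 was the lowest library in oligodendrocytes, precursors and astrocytes alike. Hmgcs1 was higher in oligodendrocytes than in precursors (log2 fold change 0.97 with SE 0.15, adjusted p = 1.83e-05) and than in astrocytes (log2 fold change 0.39 with SE 0.08, adjusted p = 0.00101), and lower in microglia than in astrocytes (log2 fold change -1.40 with SE 0.20, adjusted p = 6.61e-12).

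Mvk, which phosphorylates mevalonate, had 15.5, 24.1, 25.1 and 20.6 CPM in oligodendrocytes, against 8.76, 15.9, 11.4 and 19.1 in astrocytes. In neurons it had 8.68, 9.33, 8.17 and 7.31 CPM. The ranges overlapped in both comparisons, and the fitted difference was 0.63 ± 0.17 log2 units (SE) over astrocytes, adjusted p = 0.00469, and 0.87 ± 0.21 for astrocytes over neurons, adjusted p = 0.00132. Pmvk, which adds the next phosphate, had 31.3 ± 9.72 CPM in oligodendrocytes and 25.2 ± 5.30 CPM in astrocytes (SD, n = 4 each), adjusted p = 0.0385, a call lost when Ucn3-Cre replicate 1 (0.0801), Ucn3-Cre replicate 2 (0.0515) or vGluT2-Cre replicate 1 (0.224) was left out.

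Mvd and Idi1, which make and isomerise isopentenyl pyrophosphate, had their highest mean level in astrocytes. Mvd had 6.80, 11.9, 19.5 and 5.67 CPM in oligodendrocytes and 13.8, 24.7, 28.7 and 16.9 CPM in astrocytes, with overlap, and was lower in oligodendrocytes (log2 fold change -0.97 with SE 0.17, adjusted p = 0.000263). Astrocytes exceeded neurons, where Mvd had 11.8, 12.2, 15.3 and 14.7 CPM (log2 fold change 0.77 with SE 0.17, adjusted p = 0.000622). In microglia only 2.48 counts of Mvd were summed over the 4 libraries against 293 in astrocytes. With the sums rounded to whole counts, the level in astrocytes was 14.9 times that in microglia (95% counting interval 4.10 to 124). All such ratios here use rounded sums, and their intervals cover counting error only. By mean CPM, the microglial level of Mvd was 10.8% of the astrocyte level. The fitted fold of that comparison was -3.66, and it was -4.64 without Ucn3-Cre replicate 2 and -2.98 without vGluT2-Cre replicate 1. Idi1 had 20.9, 42.3, 45.1 and 37.3 CPM in astrocytes and 15.8, 26.7, 28.3 and 18.5 CPM in neurons (log2 fold change 0.83 with SE 0.12, adjusted p = 1.32e-05), and 12.6, 10.5, 6.20 and 12.1 CPM in microglia (log2 fold change -2.21 with SE 0.34, adjusted p = 2.75e-10). The microglial values lay below every astrocyte value, whereas Idi1 in oligodendrocytes, 20.7, 33.7, 42.5 and 25.5 CPM, did not pass the test against either astrocytes or precursors.

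Of the 8 squalene and sterol members, 5 were higher in oligodendrocytes than in precursors and none lower (23.7% and 26.4% of all genes). Against astrocytes 4 were higher in oligodendrocytes and 1 lower (33.8% and 34.7%). In astrocytes 5 were higher and 1 lower than in neurons (34.4% and 36.2%), and all 8 were lower in microglia than in astrocytes (33.9%). Msmo1, the methyl sterol oxidase, had 138, 196, 259 and 169 CPM in oligodendrocytes, against 56.1, 124, 118 and 76.3 in precursors, without overlap (log2 fold change 1.07 with SE 0.13, adjusted p = 7.02e-07). In astrocytes it had 97.9, 206, 224 and 193 CPM, in neurons 49.6, 82.4, 74.3 and 72.1 and in microglia 10.8, 46.8, 26.8 and 19.7 CPM. Astrocytes stood above neurons (log2 fold change 1.49 with SE 0.09, adjusted p = 1.13e-10) and microglia below astrocytes (log2 fold change -3.17 with SE 0.20, adjusted p = 4.78e-49) in each library, and oligodendrocytes and astrocytes overlapped and did not pass the test (log2 fold change 0.13, adjusted p = 0.309).

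Fdft1, squalene synthase, had 90.8, 114, 134 and 93.4 CPM in oligodendrocytes, 21.3, 93.3, 72.5 and 53.1 in precursors and 59.7, 89.6, 99.5 and 73.8 in astrocytes. It was higher in oligodendrocytes than in precursors (log2 fold change 0.83 with SE 0.16, adjusted p = 0.000281) and than in astrocytes (log2 fold change 0.46 with SE 0.08, adjusted p = 0.000178). Neurons had 45.2, 56.5, 63.2 and 52.3 CPM, below astrocytes (log2 fold change 0.68 with SE 0.09, adjusted p = 1.83e-06), and microglia had 5.64, 17.9, 18.5 and 9.86 CPM, below every astrocyte value (log2 fold change -2.84 with SE 0.26, adjusted p = 2.17e-25). Sqle, squalene epoxidase, was listed at 53.6, 79.2, 96.4 and 74.1 CPM in oligodendrocytes and 29.1, 64.7, 63.4 and 66.4 CPM in astrocytes (log2 fold change 0.46 with SE 0.11, adjusted p = 0.00222). Its astrocyte value in Ucn3-Cre replicate 1 was less than any other and lay far below the other 3 libraries. Microglia had 11.4, 14.1, 1.64 and 9.59 CPM (log2 fold change -3.18 with SE 0.32, adjusted p = 4.01e-21). Precursors had the highest mean of Sqle, 90.0 ± 25.1 CPM (SD, n = 4), which oligodendrocytes did not pass the test against (adjusted p = 0.228).

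Cyp51, the lanosterol demethylase, had 67.6, 123, 115 and 112 CPM in oligodendrocytes, against 58.2, 80.0, 67.0 and 80.3 in precursors (log2 fold change 0.63 with SE 0.13, adjusted p = 0.000405). Astrocytes had 38.6, 102, 70.3 and 84.2 CPM, again below oligodendrocytes on the fit (log2 fold change 0.55 with SE 0.10, adjusted p = 0.000287). Both pairs overlapped, and Ucn3-Cre replicate 1 was the lowest library in all 3 classes. Sc5d, the sterol desaturase before the last steps, had 49.6, 85.8, 90.8 and 72.2 CPM in oligodendrocytes and 31.5, 51.2, 53.5 and 48.4 CPM in astrocytes (log2 fold change 0.72 with SE 0.08, adjusted p = 2.81e-06), and it was the 1 sterol gene that was lower in astrocytes than in neurons, where it had 63.9, 80.4, 67.1 and 68.0 CPM (log2 fold change -0.46 with SE 0.10, adjusted p = 0.000789). The astrocyte and neuron values did not overlap.

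Nsdhl, which removes a methyl group of the sterol ring, was the sterol gene with the opposite order between the 2 main glial classes. It had 55.1, 44.8, 60.4 and 49.3 CPM in oligodendrocytes, against 61.4, 67.7, 80.3 and 79.9 CPM in astrocytes, without overlap (log2 fold change -0.45 with SE 0.10, adjusted p = 0.00132), and 33.1, 29.7, 32.8 and 34.4 CPM in neurons, below every astrocyte value (log2 fold change 1.29 with SE 0.10, adjusted p = 3.18e-09). Over precursors it was higher in oligodendrocytes by 0.56 log2 units (adjusted p = 0.0221), a call lost without Ucn3-Cre replicate 1 (0.0642) or without vGluT2-Cre replicate 2 (0.0991). Lss, lanosterol synthase, and Dhcr7, the enzyme of the last step, passed neither test of oligodendrocytes. Dhcr7 averaged 41.7 ± 5.84 CPM in oligodendrocytes and 39.2 ± 8.58 CPM in astrocytes, and Lss 19.2 ± 4.67 and 17.3 ± 3.32 CPM (SD, n = 4 each). In microglia Lss was lower than in astrocytes, with a fitted log2 fold change of -1.87, and of -2.77 without vGluT2-Cre replicate 2.

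The 4 regulators of the pathway were not all highest in the same class. Srebf2, which encodes the factor SREBP-2 that drives sterol genes, and Scap, which encodes its escort to the Golgi, were highest in oligodendrocytes, as was Insig1, and Srebf1, whose product SREBP-1 drives fatty acid genes, was highest in astrocytes. Srebf2 had 220.2, 231, 277 and 200.5 CPM in oligodendrocytes, against 144, 132, 168 and 97.4 in precursors (log2 fold change 0.86 with SE 0.11, adjusted p = 1.77e-06) and 142, 166, 187 and 163 in astrocytes (log2 fold change 0.53 with SE 0.08, adjusted p = 6.98e-05). Oligodendrocytes lay above both other classes without overlap. Neurons had 112, 108, 109 and 105 CPM, below astrocytes (log2 fold change 0.72 with SE 0.08, adjusted p = 4.27e-07), and microglia had 29.2, 87.9, 47.2 and 58.5 CPM (log2 fold change -1.82 with SE 0.17, adjusted p = 9.5e-25).

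Scap had 72.3, 78.6, 68.2 and 78.2 CPM in oligodendrocytes, 39.2, 56.9, 28.3 and 54.7 in precursors, 44.6, 61.1, 52.0 and 52.9 in astrocytes and 39.2, 49.6, 39.2 and 34.2 in neurons. Its oligodendrocyte values lay above those of precursors (log2 fold change 0.78 with SE 0.16, adjusted p = 0.000557) and of astrocytes (log2 fold change 0.53 with SE 0.08, adjusted p = 0.000107) without overlap, and astrocytes overlapped with neurons while passing the test (log2 fold change 0.51 with SE 0.10, adjusted p = 0.000326). Srebf1 had 54.3, 62.7, 63.5 and 49.4 CPM in oligodendrocytes, against 152, 163, 192 and 137 in astrocytes (log2 fold change -1.44 with SE 0.07, adjusted p = 8.85e-10). It had 9.13, 10.6, 8.72 and 5.75 CPM in neurons (log2 fold change 4.38 with SE 0.12, adjusted p = 2.4e-15 for astrocytes over neurons) and 26.0, 16.1, 9.41 and 16.1 in microglia (log2 fold change -3.77 with SE 0.24, adjusted p = 2.3e-51). Each of these classes lay below every astrocyte value.

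Insig1, which retains the SREBP complex in the endoplasmic reticulum and is itself a target of SREBP, had 97.9, 81.0, 138 and 81.7 CPM in oligodendrocytes. Precursors had 72.1, 65.9, 106 and 44.7 CPM (log2 fold change 0.54 with SE 0.13, adjusted p = 0.00249 for oligodendrocytes over precursors) and astrocytes 79.7, 72.2, 122 and 65.0 CPM (log2 fold change 0.28 with SE 0.07, adjusted p = 0.00367 for oligodendrocytes over astrocytes). Oligodendrocytes overlapped with both. Microglia had 1.91, 25.9, 30.4 and 17.0 CPM, below every astrocyte value (log2 fold change -2.31 with SE 0.24, adjusted p = 9.17e-21).

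Acetyl-CoA carboxylase, the committed step of fatty acid synthesis, was split between classes by gene. Acaca, the cytosolic form, was highest in oligodendrocytes, and Acacb, the form at the mitochondrial membrane that restrains fatty acid oxidation, was highest in astrocytes. Acaca had 907, 644, 774 and 576 CPM in oligodendrocytes, against 294, 253, 344 and 227 in precursors (log2 fold change 1.41 with SE 0.10, adjusted p = 5.26e-10) and 329.7, 332, 416 and 309.9 in astrocytes (log2 fold change 1.09 with SE 0.11, adjusted p = 1.26e-06). It had 268, 233, 262 and 228 CPM in neurons, below astrocytes (log2 fold change 0.60 with SE 0.08, adjusted p = 2.45e-06), and 67.8, 92.3, 206 and 98.6 in microglia (log2 fold change -1.87 with SE 0.15, adjusted p = 3.42e-33). None of these 4 pairs overlapped.

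Acacb had 0.640, 1.05, 2.10 and 0.807 CPM in oligodendrocytes, 1.30% of the astrocyte level and under the 2.26% found for astrocyte markers there, against 93.3, 87.6, 98.2 and 73.9 CPM in astrocytes (log2 fold change -6.11 with SE 0.17, adjusted p = 4.37e-12). Neurons had 0.584, 3.38, 11.5 and 2.44 CPM (log2 fold change 4.15 with SE 0.24, adjusted p = 5.97e-11 for astrocytes over neurons, and 5.20 without vGluT2-Cre replicate 1). In microglia 0.972 counts were summed against 1198 in astrocytes, so that astrocytes stood 122 times higher (95% counting interval 21.9 to 4829), and the fitted fold of -7.12 was -10.33 without vGluT2-Cre replicate 2. Fasn, which builds palmitate, had 31.6, 33.8, 46.1 and 35.3 CPM in oligodendrocytes and 32.1, 43.3, 62.0 and 44.0 CPM in astrocytes (log2 fold change -0.27 with SE 0.09, adjusted p = 0.0252). These ranges overlapped, and the call was lost without Ucn3-Cre replicate 2 (0.0796), without vGluT2-Cre replicate 1 (0.0820) or without vGluT2-Cre replicate 2 (0.0850). Astrocytes stood above neurons for Fasn, with 19.7, 18.1, 21.4 and 20.1 CPM in neurons (log2 fold change 1.34 with SE 0.13, adjusted p = 6.5e-08), and microglia with 7.91, 21.0, 22.5 and 14.9 CPM lay below astrocytes (log2 fold change -1.72 with SE 0.28, adjusted p = 3.69e-09).

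The 12 genes that modify or activate fatty acids were not all highest in the same class. The genes for saturated and monounsaturated chains, the stearoyl-CoA desaturases Scd1, Scd2 and Scd3 and the elongases Elovl1 and Elovl7, together with Elovl5 and with Fa2h, which hydroxylates the fatty acids of myelin galactolipids, were highest in oligodendrocytes. The desaturases Fads1 and Fads2 and the elongase Elovl2, which make polyunsaturated fatty acids, and Acsl3, which activates fatty acids, were highest in astrocytes. Of the 11 members tested against precursors, 7 were higher in oligodendrocytes and 3 lower (23.7% and 26.4% of all genes). Of 12 tested against astrocytes 8 were higher and 4 lower (33.8% and 34.7%).

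Fa2h had 1021, 1089, 885 and 1025 CPM in oligodendrocytes, against 16.4, 7.71, 15.7 and 9.64 in astrocytes (log2 fold change 6.44 with SE 0.17, adjusted p = 2.76e-12), where 1.23% of the oligodendrocyte level is under the 4.38% of the oligodendrocyte markers. Precursors had 133, 161, 127 and 161 CPM, 14.5% of the oligodendrocyte level and above that of the markers, and oligodendrocytes exceeded them (log2 fold change 2.83 with SE 0.10, adjusted p = 3.53e-14). Elovl7 had 357, 364, 477 and 444 CPM in oligodendrocytes, against 10.7, 15.3, 16.6 and 19.8 in precursors (log2 fold change 4.72 with SE 0.16, adjusted p = 9.3e-15). In astrocytes it had a mean of 10.5 CPM, 2.55% of the oligodendrocyte level. Scd3 had 132, 109, 69.2 and 91.8 CPM in oligodendrocytes and 0, 2.91, 1.68 and 0 CPM in precursors, where 2.47 counts were summed against 2388. With the sums rounded to whole counts, the ratio was 95.8 (95% counting interval 26.5 to 791). The fitted fold was 6.00, and 7.05 without Ucn3-Cre replicate 2. None of these oligodendrocyte ranges overlapped with that of the class set against it.

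Scd2 averaged 1033 ± 165 CPM in oligodendrocytes, 348 ± 36.3 in precursors and 485 ± 86.1 in astrocytes (SD, n = 4 each). It was higher in oligodendrocytes than in both, by 1.62 and 1.14 log2 units, and its astrocyte value in vGluT2-Cre replicate 1 lay far above the other 3. Elovl1 was higher in oligodendrocytes than in precursors by 3.30, and by 4.11 without Ucn3-Cre replicate 2, and than in astrocytes by 2.63. Elovl5, which elongates polyunsaturated chains, was higher by 1.69 and 1.19. Scd1 was higher in oligodendrocytes than in precursors by 1.31. Its smaller difference from astrocytes, 0.32, lost its call without Ucn3-Cre replicate 2 (0.0816) or vGluT2-Cre replicate 2 (0.0653), and vGluT2-Cre replicate 1 stood far above the other libraries in oligodendrocytes and in astrocytes. The 3 Scd genes lie side by side on chromosome 19 and are close in sequence, so the counting may have split reads among them. Elovl6, which turns palmitate into stearate, was highest in precursors. It averaged 116 ± 23.7 CPM in oligodendrocytes and 209 ± 52.5 in precursors, lower by a log2 fold change of -0.76, and was higher in oligodendrocytes than in astrocytes by 0.49.

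Fads2 had 0, 0.432, 0.344 and 0.623 CPM in oligodendrocytes, against 44.6, 38.2, 48.2 and 48.7 in precursors (log2 fold change -6.68 with SE 0.42, adjusted p = 9.09e-11) and 90.6, 162, 146 and 138 in astrocytes (log2 fold change -8.32 with SE 0.17, adjusted p = 6.04e-13). The oligodendrocyte level was 0.260% of the astrocyte level, under that of the astrocyte markers, and neurons had 7.0, 4.22, 4.60 and 5.28 CPM (log2 fold change 4.90 with SE 0.15, adjusted p = 7.4e-15 for astrocytes over neurons). In microglia no count of Fads2 was found against 1913 in astrocytes, so the microglial level was at least 65.0-fold lower, taking 3 counts over the 4 libraries as the limit of a count of 0. Elovl2 had 1.24, 1.76, 0.840 and 0.553 CPM in oligodendrocytes and 54.1, 48.9, 70.5 and 56.8 CPM in astrocytes (log2 fold change -5.65 with SE 0.20, adjusted p = 5.08e-11). Neurons had 5.38, 3.51, 3.52 and 2.88 CPM of Elovl2 (log2 fold change 4.09 with SE 0.17, adjusted p = 5.7e-13) and microglia 6.64, 2.47, 1.99 and 1.17 CPM (log2 fold change -4.67 with SE 0.42, adjusted p = 9.65e-27). Fads2 and Elovl2 in each of these classes lay below every astrocyte value.

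Acsl3 had 107, 152, 171 and 129.5 CPM in oligodendrocytes, against 1103, 1308, 1279 and 1325 CPM in astrocytes (log2 fold change -3.13 with SE 0.10, adjusted p = 1.77e-11). It had 68.9, 91.5, 86.9 and 77.7 CPM in neurons (log2 fold change 4.06 with SE 0.09, adjusted p = 2.62e-16 for astrocytes over neurons) and 24.5, 25.2, 37.4 and 25.4 in microglia (log2 fold change -5.85 with SE 0.22, adjusted p = 2.21e-122). Astrocytes stood above all 3 without overlap. Fads1 was lower in oligodendrocytes than in precursors by a log2 fold change of -1.39 and than in astrocytes by -2.62, with means of 19.3, 52.4 and 121 CPM in oligodendrocytes, precursors and astrocytes. Between astrocytes and neurons, 6 of 11 genes of these functions were higher in astrocytes and Elovl6, Elovl7 and Fa2h lower (34.4% and 36.2% of all genes). The astrocyte levels of Elovl7 and Fa2h lie under the 4.38% given above and are called background in the same sense. The Fa2h call was lost without Ucn3-Cre replicate 2 (0.138), without vGluT2-Cre replicate 2 (0.0510) or with DESeq2 (0.0718). Of the 11 tested, 8 were lower in microglia than in astrocytes (33.9% of all genes). Elovl1 was higher in microglia by 0.75, a call lost with DESeq2 (0.106) and without Ucn3-Cre replicate 2 (0.0850), vGluT2-Cre replicate 1 (0.0873) or vGluT2-Cre replicate 2 (0.105).

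The 3 genes of export and oxidation had an order of their own. Apoe, the lipid carrier of the brain, and Abca1, the exporter that loads it with cholesterol, were highest in astrocytes, and Cyp27a1, the sterol 27-hydroxylase, in oligodendrocytes. Apoe had 448, 897, 465 and 660.1 CPM in oligodendrocytes, 771, 1069, 617 and 1009 in precursors and 4989, 6542, 5622 and 6049.9 in astrocytes, and was lower in oligodendrocytes than in precursors (log2 fold change -0.45 with SE 0.10, adjusted p = 0.000542) and than in astrocytes (log2 fold change -3.24 with SE 0.13, adjusted p = 1.39e-10). Neurons had 41.9, 82.1, 51.7 and 70.2 CPM (log2 fold change 6.68 with SE 0.12, adjusted p = 6.12e-17 for astrocytes over neurons) and microglia 633, 1059, 571 and 1356 CPM (log2 fold change -3.09 with SE 0.20, adjusted p = 5.27e-50). Oligodendrocytes and precursors overlapped, and all other classes lay below every astrocyte value.

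Abca1 had 82.5, 81.7, 81.6 and 80.2 CPM in oligodendrocytes, against 300.0, 268, 297 and 234 in astrocytes (log2 fold change -1.70 with SE 0.08, adjusted p = 4.11e-10), and 10.5, 7.23, 9.70 and 4.41 in neurons (log2 fold change 5.24 with SE 0.12, adjusted p = 3.53e-16 for astrocytes over neurons). Microglia, with 198, 172, 201 and 269.6 CPM, overlapped with astrocytes but were lower on the fit (log2 fold change -0.69 with SE 0.13, adjusted p = 7.62e-07). Cyp27a1 had 395, 414, 387 and 406 CPM in oligodendrocytes, against 32.2, 27.9, 24.6 and 34.2 in precursors (log2 fold change 3.79 with SE 0.14, adjusted p = 3.71e-14) and 48.5, 63.9, 46.4 and 66.4 in astrocytes (log2 fold change 2.87 with SE 0.10, adjusted p = 4.12e-11). With 144, 169, 158 and 132 CPM in microglia (log2 fold change 1.05 with SE 0.15, adjusted p = 3.71e-11) and 18.2, 26.8, 11.8 and 23.7 in neurons (log2 fold change 1.62 with SE 0.13, adjusted p = 3.73e-09 for astrocytes over neurons), none of these pairs overlapped. Cyp27a1 and Elovl1 were the 2 members higher in microglia than in astrocytes.

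**Figure D2:**
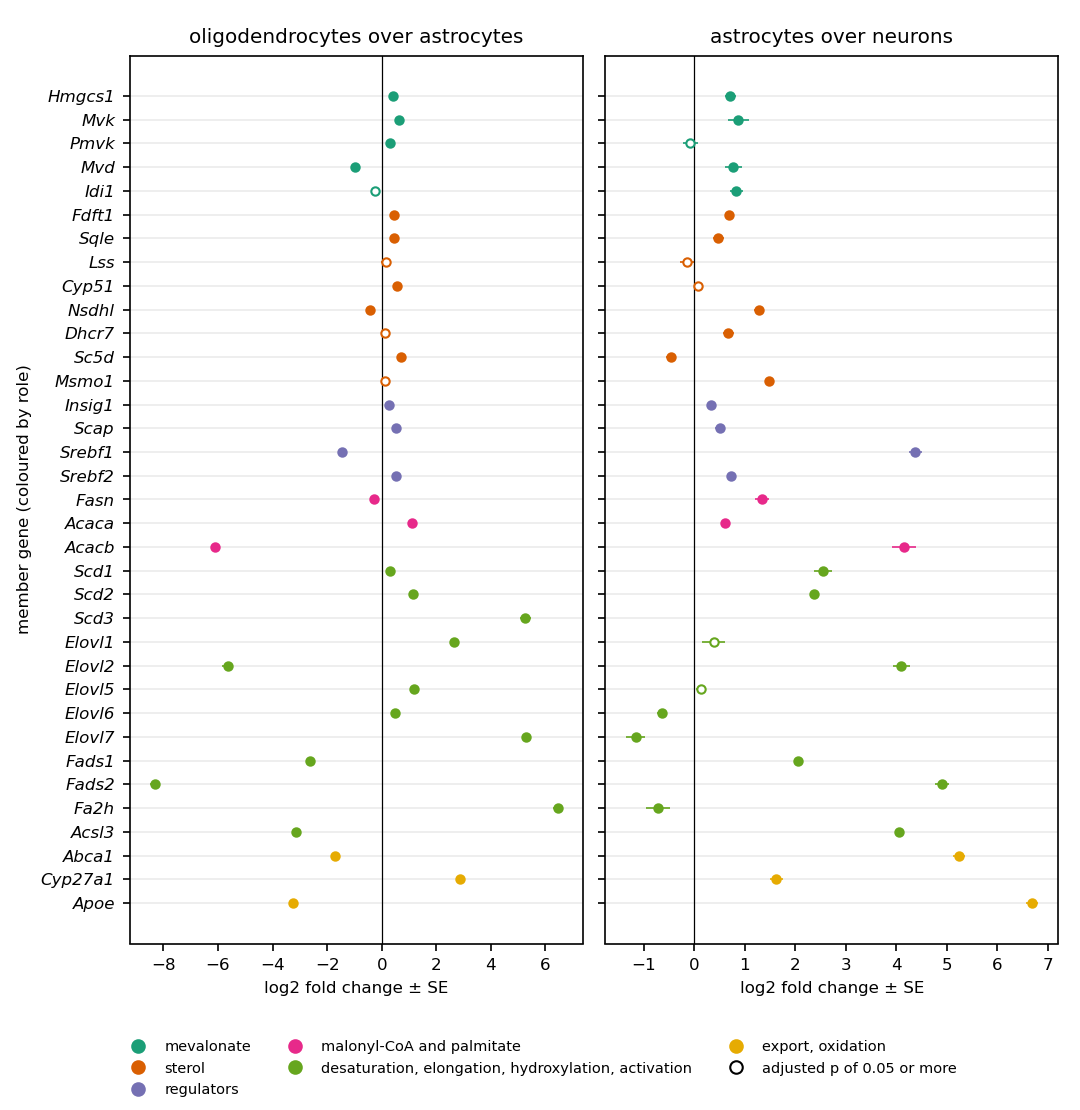
Log2 fold change with its standard error for each member, coloured by role, for oligodendrocytes over astrocytes on the left and astrocytes over neurons on the right (n = 4 libraries a class); open points did not pass the threshold of 0.05. Fa2h at 6.44, Elovl7 at 5.30 and Scd3 at 5.27 lie furthest right for oligodendrocytes, and Apoe at 6.68 and Abca1 at 5.24 for astrocytes over neurons.

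Beside the members, 50 related genes of lipid synthesis, storage, transport and uptake had a count in each library. In oligodendrocytes 21 of these 50 were higher than in precursors and 13 lower (23.7% and 26.4% of all genes), and against astrocytes 20 were higher and 18 lower (33.8% and 34.7%). Against both, Apod, a lipocalin carrier, was higher in oligodendrocytes, by 4.14 and 4.33 log2 units. The galactolipid enzymes Ugt8a and Gal3st1 were higher than in astrocytes by 5.55 and 5.49. The oxysterol hydroxylase Cyp7b1 was lower in oligodendrocytes than in precursors by a log2 fold change of -6.17 and than in astrocytes by -7.27, and the lipoprotein receptor Lrp1 by -5.70 and -5.31. In astrocytes 17 of the 50 were higher than in neurons and 23 lower (34.4% and 36.2% of all genes), with Acsbg1, an acyl-CoA synthetase, at 7.17, Clu, a lipoprotein component, at 4.29 and the cholesterol 24-hydroxylase Cyp46a1 at -1.87. In microglia 13 were higher than in astrocytes and 25 lower (26.5% and 33.9%), with the acyl-CoA synthetases Acsl1 at 3.02 and Acsl6 at -4.15.

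Sub-clusters of oligodendrocytes were compared to ask whether the lipid genes differ within the class. Those named from Klk6 held 2379 nuclei, those named from Opalin 5777, and an unnamed set of 2951 led by Agmo, Anln, Enpp6 and Scd3 lay between them. Klk6 had 474 ± 66.4 CPM in Klk6 and 22.3 ± 1.69 CPM in Opalin oligodendrocytes, and Opalin had 12 ± 1.93 and 501 ± 94.3 CPM in the same order (SD, n = 4 each). Of 32 members tested, 15 were higher in Klk6 oligodendrocytes and 8 lower, beside 22.9% and 23.1% of 10342 genes, and the median log2 fold change was 0.27 over the members and -0.004 over all genes. With DESeq2, 9 members were higher, and 7 without the library as a block. Both of these ended the calls of Hmgcs1, Mvk, Nsdhl, Sc5d, Scap, Scd2 and Srebf2, and the fit without the block also those of Msmo1 and Fa2h. The Klk6 nuclei were deeper, with a median of 2852 counts per nucleus, against 1606 to 1767 in the Opalin sub-clusters, and the part of depth was not tested.

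Cyp27a1, Scd3, Acaca and 4 further genes of fatty acid chains stood higher in Klk6 oligodendrocytes, and Apoe, Fads1, Elovl6 and Insig1 lower. Cyp27a1 had 725, 852, 739 and 784 CPM in Klk6, against 139, 142, 125 and 146 in Opalin oligodendrocytes (log2 fold change 2.52 with SE 0.06, adjusted p = 6.83e-21). Scd3 had 209, 202, 118 and 167 CPM, against 41.8, 41.9, 25.4 and 31.2 (log2 fold change 2.34 with SE 0.09, adjusted p = 6.72e-17), and Acaca had 1262, 971, 1022 and 791 CPM, against 583, 445, 557 and 395 (log2 fold change 1.05 with SE 0.05, adjusted p = 1.77e-14). All 4 Klk6 values lay above all 4 Opalin values for each of these genes. The unnamed sub-clusters lay between, with means of 414 CPM for Cyp27a1, 789 for Acaca and 125 for Scd3, which is among the genes that lead them. Elovl7, Elovl5, Elovl1 and Fa2h were also higher in Klk6 oligodendrocytes, by 1.00, 0.87, 0.67 and 0.31 log2 units.

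On the lower side, Apoe had 111, 252, 113 and 232 CPM in Klk6, against 844, 1516, 851 and 1132 in Opalin oligodendrocytes (log2 fold change -2.60 with SE 0.08, adjusted p = 6.31e-19). Elovl6 had 32.1, 53.0, 86.2 and 53.1 CPM, against 137, 162, 186 and 138 (log2 fold change -1.41 with SE 0.10, adjusted p = 1.81e-11), and Fads1 had 0.813, 2.46, 2.42 and 7.04 CPM, against 31.5, 40.0, 28.7 and 30.5 (log2 fold change -3.08 with SE 0.27, adjusted p = 6.26e-10, and -3.98 without vGluT2-Cre replicate 2). The groups did not overlap for any of the 3. Apoe is among the 10 leading genes of an Opalin sub-cluster. Acsl3 and Scd1 were lower in Klk6 oligodendrocytes by log2 fold changes of -0.71 and -0.74. Scd2 was lower with a log2 fold change of -0.13, and lost its call without Ucn3-Cre replicate 1 (0.0543), Ucn3-Cre replicate 2 (0.181) or vGluT2-Cre replicate 2 (0.233).

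Of the 9 astrocyte markers 8 were tested between these subclusters, and 7 were lower in Klk6 oligodendrocytes and 1 higher. Aqp4 was lower by a log2 fold change of -0.67, Slc1a2 by -1.57 and Gja1 by -0.99, while the glutamate transporter gene Slc1a3 was higher by 1.31. The 9 markers summed to 438 to 570 CPM in Klk6, against 464 to 588 CPM in Opalin oligodendrocytes, with none at 0. As a share of their astrocyte level, Apoe stood at 3.05% in Klk6 and 18.7% in Opalin oligodendrocytes and Fads1 at 2.63% and 27.0%, while Aqp4 stood at 2.14% and 3.45%, Slc1a2 at 0.681% and 2.20% and Gja1 at 1.42% and 2.97%. The median share over all 9 markers was 1.42% in Klk6 and 3.45% in Opalin oligodendrocytes. Slc1a3 stood at 54.0% in Klk6 and 22.2% in Opalin oligodendrocytes and Aldoc at 21.9% and 43.7%. The Apoe and Fads1 shares in Opalin oligodendrocytes were above the median of the markers there, and the part of astrocyte RNA in the differences was not tested.

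Of the 8 sterol genes 4 were higher in Klk6 oligodendrocytes, of the 5 mevalonate genes 2, and none was lower, beside 22.9% and 23.1% of all genes. Sqle had 66.1, 96.1, 131 and 90.2 CPM in Klk6, against 39.4, 67.8, 62.9 and 52.3 in Opalin oligodendrocytes (log2 fold change 0.81 with SE 0.10, adjusted p = 2.46e-07), with overlap between libraries and Klk6 above Opalin in 4 of 4. Msmo1 had 151, 196, 308 and 181 CPM, against 123, 188, 209 and 153 (log2 fold change 0.32 with SE 0.08, adjusted p = 0.000986), and Hmgcs1 had 82.2, 143, 196 and 97.7 CPM, against 70.6, 118, 139.5 and 95.6 (log2 fold change 0.30 with SE 0.08, adjusted p = 0.00478). Klk6 exceeded Opalin in 4 of 4 libraries for Msmo1 and in 4 of 4 for Hmgcs1. The Hmgcs1 call was lost without vGluT2-Cre replicate 1 (0.0996). Nsdhl had 71.9, 45.6, 65.1 and 53.3 CPM, against 53.0, 42.0, 54.8 and 40.0 (log2 fold change 0.33 with SE 0.11, adjusted p = 0.0153), and lost its call without vGluT2-Cre replicate 2 (0.118). Mvk had 19.3, 25.0, 29.4 and 25.8 CPM, against 15.0, 24.2, 20.9 and 17.3 (log2 fold change 0.41 with SE 0.16, adjusted p = 0.0367), and lost it without Ucn3-Cre replicate 1 (0.0558), vGluT2-Cre replicate 1 (0.127) or vGluT2-Cre replicate 2 (0.221). Sc5d, higher in Klk6 oligodendrocytes by 0.30, lost it without vGluT2-Cre replicate 2 (0.0909).

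The regulators were divided. Insig1 had 56.4, 39.0, 86.3 and 45.2 CPM in Klk6, against 135, 115, 188 and 115 in Opalin oligodendrocytes, without overlap (log2 fold change -1.27 with SE 0.09, adjusted p = 1.43e-11). Srebf1 had 38.3, 55.4, 50.0 and 41.1 CPM, against 65.9, 64.6, 68.6 and 55.4 (log2 fold change -0.40 with SE 0.11, adjusted p = 0.00415). Scap had 81.5, 80.0, 77.0 and 93.2 CPM, against 69.1, 74.0, 57.7 and 68.1 (log2 fold change 0.35 with SE 0.10, adjusted p = 0.00429), without overlap. Insig1 and Srebf1 were thus lower and Scap higher in Klk6 oligodendrocytes, the Scap call being lost without vGluT2-Cre replicate 2 (0.0742). Srebf2 was higher by 0.17, a call lost without Ucn3-Cre replicate 2 (0.0744), vGluT2-Cre replicate 1 (0.104) or vGluT2-Cre replicate 2 (0.135). Of 47 related genes tested, 14 were higher and 14 lower (22.9% and 23.1% of all genes). Among them were Me1, the malic enzyme that supplies NADPH, at 1.80, Apod at 1.53 and Elovl4, an elongase of very long chains, at -1.23.

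**Figure D3:**
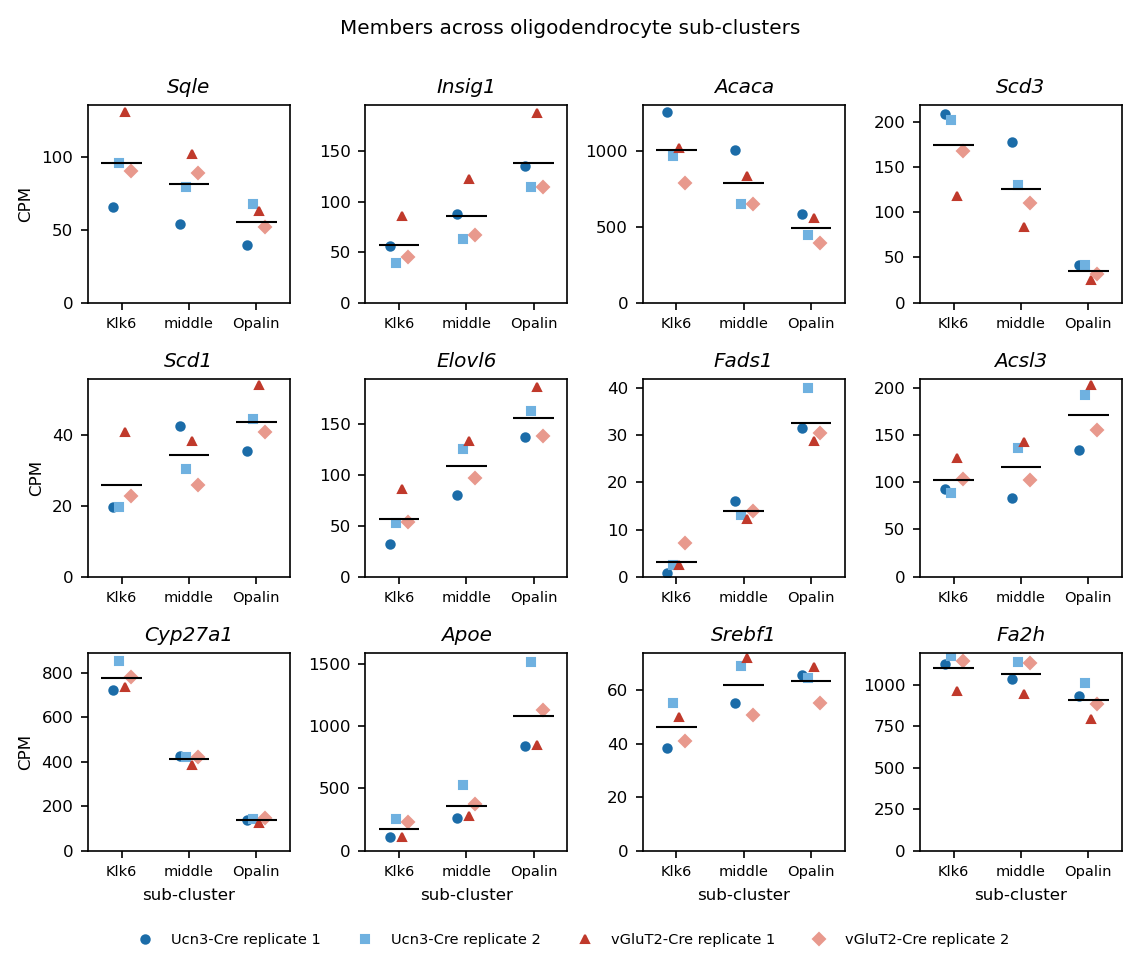
Level in CPM of 12 members in Klk6, unnamed intermediate and Opalin oligodendrocytes, 1 point per library, with a black line at the mean of 4 libraries. The means of Cyp27a1, Scd3 and Acaca are highest in Klk6 and those of Apoe, Fads1, Insig1 and Elovl6 in Opalin oligodendrocytes.

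Glutamatergic neurons and inhibitory neurons of nuclear or Golgi type, called inhibitory neurons below, were compared to ask whether these classes differ. Of 31 members tested, 22 were lower in glutamatergic neurons and 1 was higher, beside 15.3% and 16.7% of 10983 genes, and the median log2 fold change was -0.56 over the members and -0.01 over all genes. With DESeq2 11 members were lower, and 11 without the library as a block. Both ended the calls of Acaca, Acsl3, Fads1, Fasn, Fdft1, Idi1, Mvk, Nsdhl and Pmvk, DESeq2 also those of Lss and Srebf2, and the fit without the block those of Cyp51 and Fads2. All 5 mevalonate genes and 7 of 8 sterol genes were lower. The 13 mevalonate and sterol genes summed to 369, 423, 424 and 385 CPM in glutamatergic neurons, against 537, 802, 689 and 652 CPM in inhibitory neurons, without overlap. The glutamatergic nuclei were the deeper ones, with a median of 9555 counts per nucleus, against 5129 and 5475 in the inhibitory clusters, and the part of depth was not tested.

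Msmo1 had 33.8, 56.8, 51.7 and 47.7 CPM in glutamatergic neurons, against 68.0, 115, 97.4 and 93.0 in inhibitory neurons (log2 fold change -0.88 with SE 0.10, adjusted p = 6.19e-07). Sc5d had 43.1, 55.6, 50.2 and 51.8 CPM, against 89.1, 109, 84.7 and 82.9 (log2 fold change -0.75 with SE 0.11, adjusted p = 8.65e-06), and Sqle had 25.5, 28.8, 40.8 and 37.0 CPM, against 46.6, 62.4, 57.2 and 61.6 (log2 fold change -0.68 with SE 0.14, adjusted p = 0.000486). All glutamatergic values lay below all inhibitory values for these 3 genes. Among mevalonate genes, Hmgcs1 had 50.0, 46.2, 51.8 and 39.9 CPM, against 55.2, 87.9, 80.4 and 67.9 (log2 fold change -0.60 with SE 0.12, adjusted p = 0.000536). Mvk had 6.53, 6.55, 3.01 and 6.32 CPM, against 11.9, 10.4, 12.8 and 8.73 (log2 fold change -0.95 with SE 0.31, adjusted p = 0.0216), and Idi1 had 13.0, 21.9, 18.5 and 15.6 CPM, against 20.4, 33.3, 39.0 and 21.4 (log2 fold change -0.67 with SE 0.18, adjusted p = 0.00786). Hmgcs1 and Mvk did not overlap and Idi1 did. Without vGluT2-Cre replicate 1 the calls of Mvk (0.310), Idi1 (0.175), Pmvk (0.0578), Lss (0.0613) and Nsdhl (0.0824) were lost, that of Nsdhl also without Ucn3-Cre replicate 2 (0.202). Mvd, lower with a log2 fold change of -1.38, averaged 7.70 ± 2.93 CPM in glutamatergic and 18.8 ± 5.43 CPM in inhibitory neurons (SD, n = 4 each).

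Insig1 had 62.9, 40.6, 74.6 and 38.4 CPM in glutamatergic neurons, against 98.9, 98.5, 111 and 72.2 in inhibitory neurons (log2 fold change -0.75 with SE 0.11, adjusted p = 2.59e-05), and Srebf2 had 95.7, 97.2, 96.4 and 89.6 CPM, against 137, 125, 125 and 119 (log2 fold change -0.32 with SE 0.09, adjusted p = 0.00673). Srebf2 did not overlap, and Scap and Srebf1 did not pass the test. Acaca had 215, 209.8, 234 and 205 CPM, against 330.3, 265, 290.5 and 253 (log2 fold change -0.29 with SE 0.07, adjusted p = 0.00437). Fasn had 13.4, 15.1, 15.7 and 15.3 CPM, against 24.6, 19.3, 25.9 and 24.1 (log2 fold change -0.56 with SE 0.19, adjusted p = 0.0297). Neither overlapped, and the Fasn call was lost without Ucn3-Cre replicate 1 (0.0676), vGluT2-Cre replicate 1 (0.146) or vGluT2-Cre replicate 2 (0.0811).

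Scd2 had 67.8, 71.9, 86.4 and 76.6 CPM in glutamatergic neurons, against 105, 117, 129.8 and 118 in inhibitory neurons (log2 fold change -0.55 with SE 0.09, adjusted p = 5.56e-05), and Fads1 had 22.3, 25.6, 31.9 and 23.5 CPM, against 35.6, 42.1, 34.4 and 40.2 (log2 fold change -0.43 with SE 0.16, adjusted p = 0.0426). The Fads1 call was lost without Ucn3-Cre replicate 1 (0.0774), Ucn3-Cre replicate 2 (0.161) or vGluT2-Cre replicate 2 (0.178), and that of Acsl3, lower with a log2 fold change of -0.35, without Ucn3-Cre replicate 2 (0.207) or vGluT2-Cre replicate 2 (0.185). Fads2 had 2.24, 0.999, 2.45 and 1.78 CPM, against 13.0, 8.33, 6.62 and 8.80 (log2 fold change -1.94 with SE 0.36, adjusted p = 0.000204), Abca1 3.18, 1.26, 2.51 and 0.621, against 15.9, 9.80, 16.4 and 7.08 (log2 fold change -2.62 with SE 0.34, adjusted p = 2.87e-06), and Apoe 6.99, 38.7, 27.9 and 22.8, against 59.8, 92.4, 53.8 and 99.4 (log2 fold change -1.44 with SE 0.18, adjusted p = 1.63e-06). These genes are high in astrocytes, and the astrocyte markers Aqp4 and Slc1a2 were lower in glutamatergic neurons too, by log2 fold changes of -1.08 and -1.01. The 9 astrocyte markers summed to 75.3 to 125 CPM in glutamatergic and 143 to 200 CPM in inhibitory neurons, with none at 0. Apoe stood at 0.416% and 1.32% of its astrocyte level in glutamatergic and inhibitory neurons, beside marker medians of 0.547% and 1.22%. It lay under the median in glutamatergic and just above it in inhibitory neurons, and the part of astrocyte RNA in these differences was not tested.

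Cyp27a1 was the 1 member higher in glutamatergic neurons, with 26.1, 45.4, 23.2 and 42.3 CPM, against 10.8, 8.62, 2.56 and 8.20 in inhibitory neurons, without overlap (log2 fold change 2.43 with SE 0.23, adjusted p = 3.08e-08). Its glutamatergic level was 8.56% of that in oligodendrocytes, above the 1.51% of the oligodendrocyte markers there, whereas the inhibitory level was 1.88% of it beside 2.20% for the markers. Of 49 related genes tested, 8 were higher and 18 lower in glutamatergic neurons (16.7% and 15.3% of all genes). Among the lower were the lipoprotein receptor Vldlr at -1.17 and the sterol isomerase Ebp at -0.88.

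**Figure D4:**
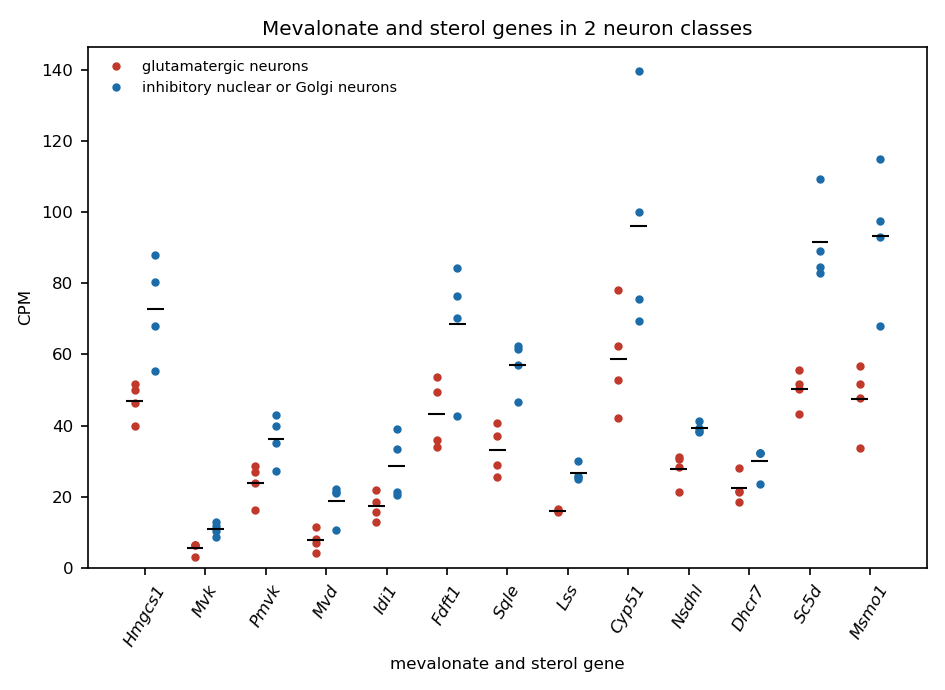
Level in CPM of the 13 mevalonate and sterol members in glutamatergic and inhibitory neurons, 1 point per library, with a line at the mean of 4 libraries. The glutamatergic mean lies below the inhibitory mean for each gene.

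Comparisons between libraries asked whether line or sex moved these genes. No member and no gene passed the adjusted threshold for Ucn3-Cre over vGluT2-Cre in all nuclei, in oligodendrocytes or in astrocytes, or for female over male in all nuclei, so 0% of genes were called. At an unadjusted p under 0.05, 3.46%, 2.74%, 3.00% and 3.28% of genes passed in those 4 comparisons, and of the members 1, 0, 0 and 3. DESeq2, run as another test, called 241, 192, 78 and 204 genes. With 2 libraries against 2, a permutation test over libraries could not reach 0.05.

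In all nuclei Elovl7 had 171 and 178 CPM in Ucn3-Cre, against 217 and 223 in vGluT2-Cre libraries (log2 fold change -0.32, unadjusted p = 0.0423, adjusted p = 1). Fasn had 28.6 and 31.2 CPM, against 41.1 and 33.7, and Sqle 41.1 and 64.3, against 71.6 and 63.9 CPM. On the other side, Scd3 had 55.9 and 47.4 CPM, against 30.7 and 44.9, Acacb 32.4 and 26.0, against 24.8 and 22.1, and Srebf1 72.5 and 73.3, against 71.0 and 61.2 CPM. The lines did not overlap for these genes other than Sqle, yet none passed the adjusted test. Of all 35 members, 3 lay lower in Ucn3-Cre without overlap and 4 higher, beside 13.2% and 12.7% of 11403 genes. DESeq2 called Elovl7 (adjusted p = 0.0454).

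In oligodendrocytes Scd3 had 132 and 109 CPM in Ucn3-Cre, against 69.2 and 91.8 in vGluT2-Cre libraries (log2 fold change 0.61, unadjusted p = 0.0666). Elovl7 had 357 and 364 CPM, against 477 and 444, Fasn 31.6 and 33.8, against 46.1 and 35.3, and Sqle 53.6 and 79.2, against 96.4 and 74.1 CPM. Msmo1 had 138 and 196 CPM, against 259 and 169, and Lss 16.2 and 17.5, against 26.1 and 16.8 CPM, with vGluT2-Cre replicate 1 far above the rest for Lss. Scd3, Elovl7 and Fasn did not overlap between the lines, and the others did. Of 32 members in oligodendrocytes, 2 lay lower in Ucn3-Cre without overlap and 2 higher, beside 14.4% and 11.2% of 10219 genes. In astrocytes Nsdhl had 61.4 and 67.7 CPM in Ucn3-Cre, against 80.3 and 79.9 in vGluT2-Cre libraries (log2 fold change -0.28, unadjusted p = 0.0635). Elovl6 had 65.8 and 81.7 CPM, against 96.4 and 92.3, Fasn 32.1 and 43.3, against 62.0 and 44.0, and Elovl5 64.4 and 69.8, against 98.9 and 73.3 CPM. Elovl7 had 8.11 and 5.42 CPM, against 10.1 and 18.3, and Elovl2 54.1 and 48.9, against 70.5 and 56.8 CPM. In astrocytes 10 of 34 members lay lower in Ucn3-Cre without overlap and none higher, beside 16.1% and 11.8% of 10441 genes. The members lower without overlap were Lss, Nsdhl, Scd2, Fasn, Elovl1, Elovl2, Elovl5, Elovl6, Elovl7 and Fads1. The Elovl7 levels in astrocytes are called background, as above.

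Among libraries, the sterol genes were mostly lowest in Ucn3-Cre replicate 1 and mostly highest in vGluT2-Cre replicate 1. Summed over the 13 mevalonate and sterol genes, all nuclei had 530, 785, 856 and 704 CPM, oligodendrocytes 649, 926, 1123 and 804, astrocytes 471, 861, 886 and 788, and neurons 444, 593, 552 and 524 CPM. Ucn3-Cre replicate 1 was the lowest and vGluT2-Cre replicate 1 the highest in the first 3 of these. Gene by gene, 12 of the 13 were lowest in Ucn3-Cre replicate 1 in all nuclei, where 35.5% of genes were, 11 in oligodendrocytes (39.9%), 13 in astrocytes (36.2%) and 9 in neurons (33.3%). In vGluT2-Cre replicate 1, 10 were highest in all nuclei (41.5%), 12 in oligodendrocytes (36.3%), 8 in astrocytes (36.5%) and 6 in neurons (35.6%). These libraries are a female with an iodixanol gradient and a male with a sucrose cushion, and they differ in age, so the sources cannot be told apart.

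**Figure D5:**
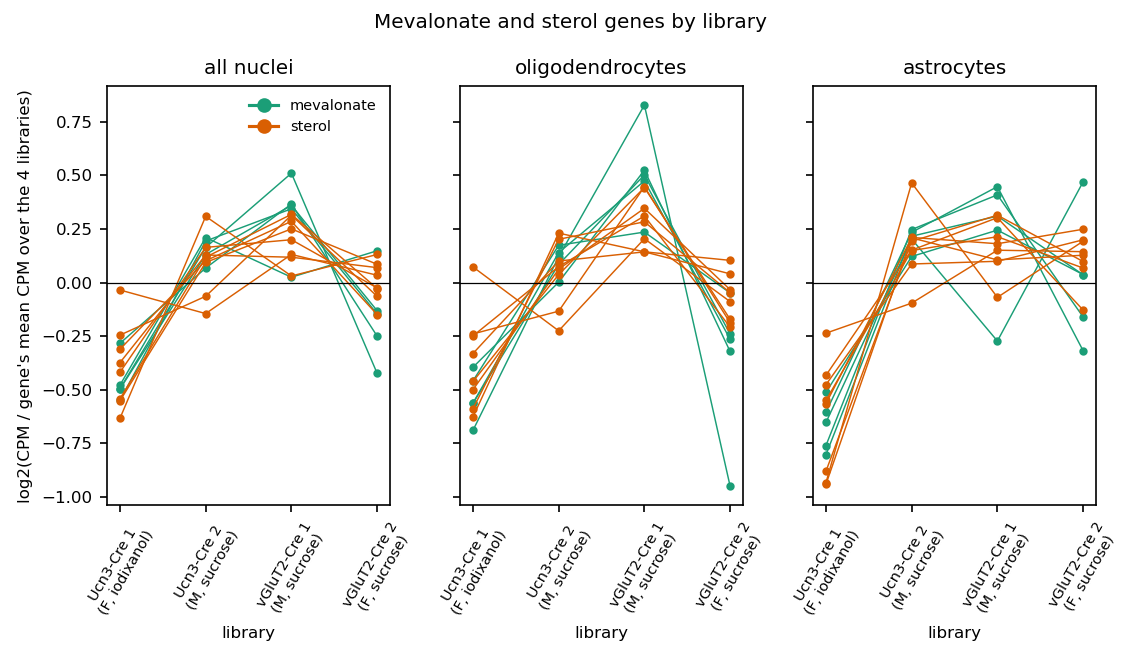
Log2 of the CPM of each of the 13 mevalonate and sterol members over its own mean of 4 libraries, drawn by library for all nuclei, oligodendrocytes and astrocytes. In astrocytes all 13 are lowest in Ucn3-Cre replicate 1, and in oligodendrocytes 12 are highest in vGluT2-Cre replicate 1.

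By sex, most sterol genes lay lower in the female libraries, and none passed the adjusted test. In all nuclei Idi1 had 20.2 and 26.7 CPM in the females, Ucn3-Cre replicate 1 and vGluT2-Cre replicate 2, against 33.8 and 37.5 CPM in the males (log2 fold change -0.54, unadjusted p = 0.0388, adjusted p = 1). Pmvk had 24.4 and 25.0 CPM in females, against 31.1 and 38.2 in males (unadjusted p = 0.0395), and Fdft1 65.4 and 73.2, against 87.1 and 98.9 CPM (unadjusted p = 0.0478). Hmgcs1 had 64.3 and 82.8 CPM in females, against 99.4 and 116 in males, Mvd 9.70 and 10.2, against 15.3 and 19.5, and Sc5d 46.9 and 61.6, against 70.2 and 71.9 CPM. None of these 6 genes overlapped between the sexes. Of the 13 mevalonate and sterol genes, 10 lay lower in females without overlap in all nuclei, where 22.9% of genes did, 12 in oligodendrocytes (21.4%), 7 in astrocytes (21.9%) and 6 in neurons (17.8%). Of the other 22 members 4 did in all nuclei, and no member lay higher in females there, where 8.51% of genes did. In neurons Nsdhl and Fads2 lay higher in females without overlap, beside 9.73% of genes. The genes of a pathway are not independent of each other, and 1 library with low counts per nucleus is among the 2 females.

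Some counts may include reads of an overlapping gene on the other strand, since the strand setting of the counting is not given in the sources used here. This applies to Hmgcs1, Mvd, Fdft1, Cyp51, Srebf1, Acaca and Elovl1, whose spans on GRCm38 overlap Gm48342, Gm20388, Ctsb, Akap9, Rai1, Gm11437 and Cdc20, all counted in these tables.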

How the data were processed

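Single-nucleus RNA was counted in 4 libraries of mouse deep cerebellar nuclei. The authors deposited per-library tables of genes by nuclei, and their values are expected counts, not whole numbers, of which 97.2% to 98.8% lay within 0.5 below a whole number. The values of a table summed to 92.8% to 95.7% of the same values rounded up, and the step that lowered them is not given in the sources used here. Reads were processed with Cell Ranger 3.1.0 and Seurat 3.2 on mm10, per the submitters' processing notes.

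Nuclei were kept if 200 genes or more were counted and mitochondrial genes took no more than 5% of counts. A doublet caller marked 56 of 21494 nuclei (0.26%), too few to be trusted, so in each library the nuclei with the highest doublet scores were removed, at 0.8% per 1000 nuclei, 947 in all. The rest were clustered with scanpy 1.11.5 and leidenalg 0.10.2 (2000 variable genes, 30 components, 15 neighbours, resolution 1; 1000 genes, 15 components and resolution 0.5 within oligodendrocytes) and named from marker lists. Genes on the Klk6 and Opalin lists were counted as oligodendrocyte genes when clusters were named, a choice made after seeing the data. Enpp6, on the list of newly formed oligodendrocytes, was not.

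Expected counts were summed by class and library, for classes with at least 20 nuclei in each library, and rounded after summing. Summed counts were tested with edgeR 4.0.16 (filterByExpr, TMM, glmQLFit, glmQLFTest) in R 4.3.3, with the library as a block between classes, and called at a Benjamini-Hochberg adjusted p under 0.05 over all genes. CPM used all summed counts of a class and library. The 4 libraries held 9096357 to 19125488 counts, which sets the counting precision, and a count of 0 allows up to 3 counts. DESeq2 1.42.0, other scaling, other clustering, rounding up, kept doublets and leaving out each library were alternatives. Values in every library are given for up to 3 called members with the largest change per role and class comparison that moved the same way in each library, and for the 6 members of smallest p in each comparison of line or sex. Members and lists were chosen with earlier results of these data known. Promoters, for 29 of 35 members, came from RefSeq on GRCm38.p6, and gene spans from an annotation of GRCm38. Fdps is not analysed here. Replicate numbers were not taken as pairs: the labels do not say what a number marks, the column names of both replicate 2 libraries share a number whose meaning is not given, and same-numbered libraries had a correlation of 0.154 over only 2 pairs.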

Additional observations from a re-analysis of the deposited data

Results flagged for a closer look

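Single libraries stood apart within a group of 4 in 11 of 197 groups of values, close to the 5% or so that chance alone flags. They are listed as values only. In vGluT2-Cre replicate 1 the high values were Pmvk in Klk6 oligodendrocytes with 53.8 CPM (other libraries 27.3 to 31.0), Fasn in Klk6 oligodendrocytes with 49.95 CPM (28.2 to 30.1), Lss in oligodendrocytes with 26.1 CPM (16.2 to 17.5), Scd1 in oligodendrocytes with 45.2 CPM (31.2 to 33.4) and in astrocytes with 44.7 CPM (23.2 to 26.4), and Scd2 in astrocytes with 613 CPM (428 to 459). In Ucn3-Cre replicate 1 the low values were Sqle in astrocytes with 29.1 CPM (63.4 to 66.4), Dhcr7 in astrocytes with 26.5 CPM (42.2 to 45.3) and in Opalin oligodendrocytes with 30.02 CPM (37.2 to 38.6), and Abca1 in Klk6 oligodendrocytes with 65.2 CPM (79.3 to 81.0). Elovl1 in neurons was high there, with 19.3 CPM (9.11 to 9.95).

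The difference between classes had opposite signs in the lines for 2 members, and this was not tested. For Cyp51 in astrocytes over neurons, the mean log2 difference of the Ucn3-Cre libraries minus that of the vGluT2-Cre libraries was -0.34. For Elovl5 in glutamatergic over inhibitory neurons it was 0.36.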

How the results depend on the processing

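Of 157 calls of a member, 38 were lost in at least 1 alternative and 0 changed direction, and of the summary values 298 stayed close to the main value and 20 moved. Members higher in microglia than in astrocytes numbered 1 with DESeq2 and 1 to 2 when each library was left out. Between Klk6 and Opalin oligodendrocytes, members higher numbered 9 with DESeq2 and 7 without the library as a block, where 2405 genes were called. Between glutamatergic and inhibitory neurons, DESeq2 called 1799 genes with 11 members lower, and the fit without the library as a block 1629 genes with 11 members lower. There, 2 members were higher with no filter on low counts and 2 with values rounded up, in place of 1. For the lines, DESeq2 called 241 genes in all nuclei, with 1 member lower, 192 in oligodendrocytes and 78 in astrocytes, and for sex 204, in place of 0. Tested over the genes with a count in all libraries, a setting added after seeing the data, the lines differed for 1 gene in oligodendrocytes. Leaving out each library gave 0 to 2 genes for sex. The Lss difference between the lines in oligodendrocytes, a log2 fold change of -0.32, ranged from -0.58 to 0.0080 when each library was left out, and changed sign without vGluT2-Cre replicate 1. With the replicate number as a block (replicate block), 0 genes were called in each of the 3 line comparisons, and whether the numbers pair the libraries cannot be read from 2 pairs (correlation 0.154). Depth limits Mvd, Acacb and Fads2 in microglia, Scd3 and Elovl2 in precursors and Fads2 in Klk6 oligodendrocytes, each with under 3 summed counts. The cause of each change was not tested.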

Other observations

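Endothelial cells, which no comparison above includes, also held several of these genes. Elovl7 had 204, 361, 344 and 229 CPM there, Elovl1 45.8, 55.3, 59.7 and 39.5, Acacb 89.1, 63.4, 50.2 and 55.3 and Apoe 1882, 1345, 1488 and 1519 CPM in the 4 libraries. The 10 oligodendrocyte markers summed to 1585 to 5636 CPM in endothelial cells, against 24857 to 26957 CPM in oligodendrocytes, with none at 0, and their part in the Elovl7 level was not tested. The 9 astrocyte markers summed to 1679 to 2352 CPM there, against 12987 to 14496 CPM in astrocytes, a median share of 11.5%, and their part in the Acacb and Apoe levels was not tested. Molecular layer interneurons had 43.8, 48.0, 48.3 and 86.1 CPM of Msmo1 and 61.4, 48.0, 33.1 and 61.9 CPM of Hmgcs1.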
